A study of Dicentrarchus labrax with 16 samples.

Results

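The 200 genes described here were those with the highest testis over muscle expression ratio among the genes of the European sea bass (Dicentrarchus labrax, a teleost fish) that were listed for both tissues. To be considered, a gene needed a value in the testis table, a value in the muscle table and a testis value of at least 10. There were 9529 such genes among 10538 shared genes and 26719 genes in all, so the 200 genes made up 2.1% of the genes considered. Without the minimum on testis, 201 of the 10538 shared genes (1.91%) had a ratio as high as that of the last member, so 1 such gene was left out for its low testis value. The members were chosen by these same values. The ratios and levels below therefore describe the list and no test was made on them.

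RNA-seq was carried out on testis and muscle of 5 fish, which gave 10 libraries, and 1 muscle sample, which is not named, was excluded by the authors. The fish were wild, untreated adults that were speared at sea outside the reproductive season, so they may differ in age and condition, and both tissues came from the same fish. For each gene the deposited tables hold 1 value for testis and 1 for muscle, named cpm (read counts scaled to the size of a library, with TMM to balance its composition). No value per fish was used here, so no spread between fish, error or test across fish was calculated, and the tables hold no count of the reads behind a value. A value of the kind named cpm is not divided by gene length. A place in a tissue's table would then order genes by reads and not by transcripts. The testis table sums to 801212 and the muscle table to 1111921. How the fish were combined is not stated, so it was not assumed that the tables share a scale. Only the order of the ratios was used to choose the genes. Scaling both tables to the same sum adds 0.47 to every log2 ratio and leaves their order as it is. The ratios and folds below hold for the values as deposited, and their size is not read as the size of a difference in expression. The paper also reports that far fewer genes took up much of the reads in muscle than in testis. Whether this shifted the ratios was not tested.

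The testis of a fish holds germ cells at successive stages, from spermatogonia through meiosis to sperm, together with Sertoli cells, which nurse them, and Leydig cells, which make androgens. Germ cells transcribe many genes that other tissues keep low, such as those for the pairing of chromosomes, for the small RNAs that silence transposons and for the sperm flagellum. Skeletal muscle consists mostly of muscle fibres and devotes much of its mRNA to contractile proteins and enzymes of energy supply. The gene identifiers of the files are not paired with names, and 0 of the 26719 identifiers matched the sea bass gene list of RefSeq. Which of these roles the 200 genes have was not analysed here, nor were the markers of the cell types of either tissue. The germ cell stages that these testes held outside the reproductive season were not analysed either. In whole tissue, fewer cells of a type and less RNA per cell cannot be told apart.

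The gene with the highest ratio was DLAgn_00115050, with a value of 1062 in testis, against 2.99 in muscle. Its testis value was 355 times its muscle value, a log2 ratio of 8.47. It held place 48 among the 16380 genes of the testis table and place 8982 among the 12715 genes of the muscle table. This gene therefore stood near the top of one tissue and below the middle of the other. The next gene by ratio had 759 in testis, against 2.54 in muscle, and the third had 390 in testis, against 1.34 in muscle. The fourth had 330 in testis, against 1.23 in muscle. These 4 genes were the only ones of the 9529 with a log2 ratio of at least 8. A further 15 genes had a log2 ratio from 7 to 8, 67 from 6 to 7, and the remaining 114 lay under 6.

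Among all 200 genes the testis value was between 26.4 and 2436, with a median of 98.1 (89.4 to 112, the 95% interval of a median over genes, which are not independent replicates). The muscle value lay between 0.132 and 30.8, with a median of 1.48 (1.28 to 1.66). The median ratio was 61.1-fold, or 5.93 on the log2 scale. Over all genes considered, the median values were 45.3 in testis and 6.28 in muscle, with a median log2 ratio of 2.90. The list thus differed from the genes considered on both sides, by higher testis values and lower muscle values. Its median log2 ratio lay 3.04 above that of the genes considered, and its last gene 2.63 above it. Since the rule used both values, these gaps are set by the choice of genes.

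**Figure D1:**
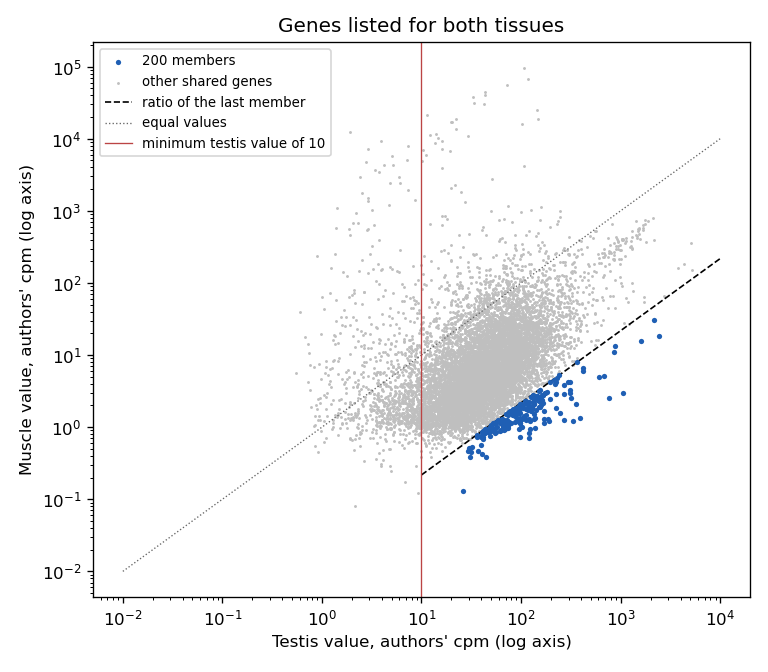
Each point is a gene listed for both tissues, with the authors' testis value on the x axis and the authors' muscle value on the y axis, both as cpm on log axes. The 200 genes (blue) lie below the dashed line of the last ratio that entered the list, and their lowest testis value is 26.4, to the right of the minimum of 10.

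The highest testis values of the list lay far above its median. DLAgn_00177410 had the highest testis value, 2436, against 18.3 in muscle, a log2 ratio of 7.06. It held place 6 of the testis table and place 2649 of the muscle table. The gene with the second highest testis value had 2148 in testis, against 30.8 in muscle, which was also the highest muscle value of the list. The third had 1599 in testis, against 15.7 in muscle. These genes were not the most biased ones, as they held places 17, 69 and 29 by ratio. Together the 3 genes held 18.5% of the summed testis values of the 200 genes. A testis value of at least 100 was listed for 97 of the 200 genes (48.5%) and for 1599 of the 9529 genes considered (16.8%). A value of at least 1000 was listed for 4 (2%) and 56 (0.588%) of them. The rule used these values, so the shares are a description. None of the 200 genes was among the 1000 highest muscle values. Each had a testis value at least 45.97 times its muscle value, so the rule all but set this. The 200 genes made up 4.17% of the summed testis values and 0.0391% of the summed muscle values.

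At the low end, the gene in place 6 by ratio had both the lowest testis value and the lowest muscle value of the list, 26.4 in testis, against 0.132 in muscle. Its ratio of 200-fold rests on the only muscle value of the list under 0.38. The testis value exceeded the upper quartile of the testis table, 53.2, in 164 of the 200 genes (82%) and the median of that table in all 200. The lower quartile of the genes considered was 26.5, above the table's median of 22.9, so most of them exceeded this median too. A testis value of at least 50 was listed for 167 of the 200 genes (83.5%) and for 4298 of the 9529 genes considered (45.1%). The share of the genes considered above 53.2 was not counted and can be at most this 45.1%. The muscle value was under the lower quartile of the muscle table, 2.59, in 161 genes (80.5%). A muscle value under 3 was listed for 177 of the 200 genes (88.5%) and for 2524 of the 9529 genes considered (26.5%). The share of the genes considered under 2.59 was not counted and can be at most this 26.5%. Muscle values under 1 were listed for 47 of the 200 genes (23.5%) and for 162 of the other 9329 genes considered (1.74%). A muscle value of 10 or more was listed for 5 of the 200 genes. The share with a muscle value under 10 was 97.5% in the list and 64.1% over the genes considered. All 200 genes were therefore among the upper part of the testis table, as were most genes considered. Of the 200, 8 lay above the median of the muscle table, 5.84, which the median muscle value of the genes considered, 6.28, exceeded.

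**Figure D2:**
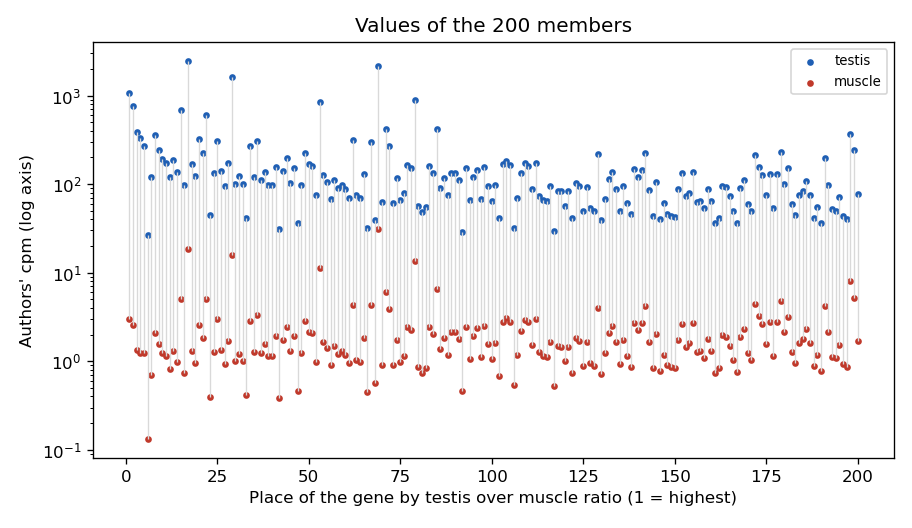
The authors' testis value (blue) and muscle value (red) of each of the 200 genes are plotted as cpm on a log axis, by the place of the gene in the order of the ratios. Testis values reach 2436 and the lower and upper quartiles of the muscle values are 1.02 and 2.28.

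Within the list, the groups of genes with the higher ratios had the higher median testis values, while their median muscle values lay close together. In the first 40 genes by ratio the median value was 171 in testis, against 1.28 in muscle. In the next 40 genes it was 108 in testis, against 1.45 in muscle. In the middle 40 it was 95.7 in testis, against 1.58 in muscle. The fourth 40 genes had 76.7 in testis, against 1.46 in muscle, and the last 40 had 75.6 in testis, against 1.61 in muscle. The median testis value thus became lower from group to group, while the median muscle value stayed between 1.28 and 1.61. The groups were cut by the ratio of these same values, so a fall of the ratio from group to group was set by the sorting. How this fall is divided between testis and muscle values was not set by the sorting alone and was not tested. These medians are a description of the list. Across the 200 genes, log2 testis and log2 muscle values had a Pearson's correlation of 0.864, against 0.504 over all 9529 genes considered. The limit on the ratio forces testis and muscle values of the list to move together, so this correlation is a description of the rule.

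The list ended without a gap in the ratios. The last 3 genes inside had 367, 240 and 78.2 in testis, against 7.97, 5.22 and 1.70 in muscle, with log2 ratios of 5.526, 5.523 and 5.523. The first 3 genes outside had 73.9, 146 and 46.7 in testis, against 1.61, 3.18 and 1.02 in muscle, with log2 ratios of 5.522, 5.520 and 5.519. The deposited testis value was 45.97 times the muscle value in the last gene inside and 45.96 times in the first outside. The highest ratio of the list was 7.73 times the lowest.

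The reach of the rule depended on which low values are listed for muscle. A gene at the minimum testis value of 10 would have entered the list only with a muscle value under 0.218, and 1 of the 9529 genes considered had such a value. Of all bands of testis values the lowest held none of the list, with 0 of the 2160 shared genes with a testis value from 10 to 25. The share was 33 of 3071 genes (1.07%) from 25 to 50, 70 of 2699 (2.59%) from 50 to 100 and 66 of 1116 (5.91%) from 100 to 200. It was 22 of 349 (6.3%) from 200 to 500 and 9 of 134 (6.72%) at 500 or more. Genes with low testis values were thus almost out of reach, although 2370 of the genes considered (24.9%) had a testis value under that of the lowest gene of the list.

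Genes without a muscle value could not be ranked. A testis value of at least 10 was listed for 1604 genes that have no muscle value. The median testis value was 98.1 in the list, against 17.2 in these genes. Of the genes without a muscle value, 406 (25.3%) had a testis value at or above the lowest of the list and 40 (2.49%) had one above its median. They made up 35% of all genes of the testis table with a value from 10 to 25, 9.46% from 25 to 50 and 0.741% at 500 or more. The highest testis value among them was 638, which 8 genes of the list exceeded. The paper takes genes expressed in 1 tissue only as tissue-specific, whatever their level, and counts 5842 for testis. That is also the number of genes listed here for testis alone at any testis value. The deposited tables do not say at which level a gene was left out of the muscle table. The lowest value of the muscle table was 0.00823, and the lowest among shared genes was 0.0796. The ratios of these 1604 genes could therefore not be calculated from the 2 expression tables, and some may exceed those of the list.

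**Figure D3:**
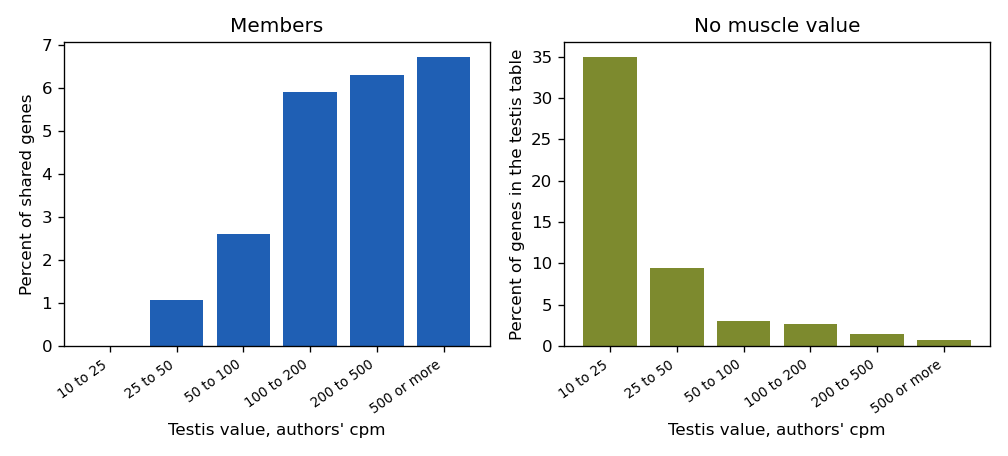
Genes with a testis value of at least 10 are divided by that value (authors' cpm). The left bars give the share of shared genes that are in the list, between 0% and 6.72%, and the right bars the share of genes in the testis table with no muscle value, between 0.741% and 35%.

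The authors' table of the comparison also gives a mean over samples for each gene, named baseMean, on a scale that is not stated. This mean comes from the same RNA-seq as the values that chose the genes, and which samples entered it, the excluded muscle sample included, is not stated. Relative to the testis value it becomes lower as the muscle value becomes small. The choice of genes by their ratio therefore sets the median of the list below that of the other genes considered. The genes without a muscle value were taken by the absence of that value and not by a ratio. Small muscle values add little to the mean, so nearness of the list to these genes is not independent of the choice either. All medians of the quotient are a description. Divided by the testis value, the baseMean had a median of 27.4 in the 200 genes (95% interval, 26.5 to 28.3). It had a median of 47.4 (46.8 to 47.9) in the other genes considered. In the 1604 genes without a muscle value the median was 27.8 (27.3 to 28.2), close to that of the list. In the list the quotient ran from 11.4 to 123. The highest belonged to the gene in place 23 by ratio, which had 44.8 in testis, against 0.389 in muscle, and a baseMean of 5513. The next highest quotient was 58.9. This gene was singled out after its values were seen, and since the samples in the mean are not known, nothing is read from its quotient.

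**Figure D4:**
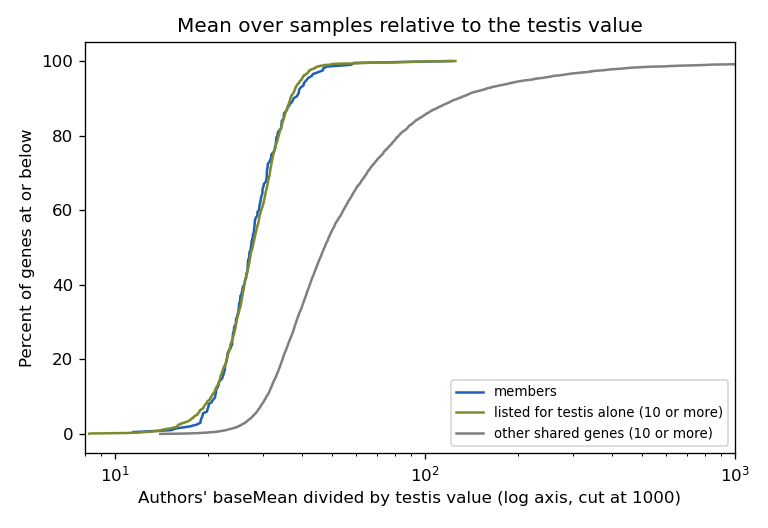
Cumulative share of genes by the authors' baseMean divided by the testis value, on a log axis that ends at 1000. The curve of the 200 genes (blue, median 27.4) lies left of the other shared genes with a testis value of at least 10 (grey, median 47.4). This order is not independent of the choice of genes by their ratio and was not tested. The blue curve runs along that of the genes listed for testis alone (green, median 27.8), which were taken by the absence of a muscle value. This nearness is not independent of the choice of genes either and was not tested.

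The identifiers are numbered in steps of 10 without a gap, and the order of the numbers was used as the one other property of the genes at hand. Whether this order follows the chromosomes is not stated in the sources used here. None of the 200 genes was next to another one of the list in this order, and the smallest distance between them was 3 places. Of the 200 genes, 10 lay within 5 places of another. The median distance was 94 places. These distances were not counted for other sets of genes, so they are not read as a trait of the list. The genes directly before and after those of the list were 400, of which 149 were shared between the tissues. Their median log2 ratio was 2.85 (95% interval, 2.53 to 3.22), against 2.74 over all shared genes. The rule did not choose these neighbours, and their median differed from that of all shared genes by less than its interval. A testis value without a muscle value was listed for 24.2% of the 400 neighbours and for 21.9% of all genes.

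The 200 genes lay between places 34 and 25146 of the 26719 places in the order of the identifiers. In 10 equal parts of this order they made up between 0.538% and 3.13% of the genes considered, beside 2.1% over all. Whether these shares differ by more than the scatter of small counts was not tested. The lowest share was that of the last part, with 2 of 372 genes, and the highest that of the second part, with 33 of 1054. The last 2 parts held few genes that could be considered at all, 18.4% and 13.9% of their genes, against 39.4% to 41.8% in the other 8 parts.

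**Figure D5:**
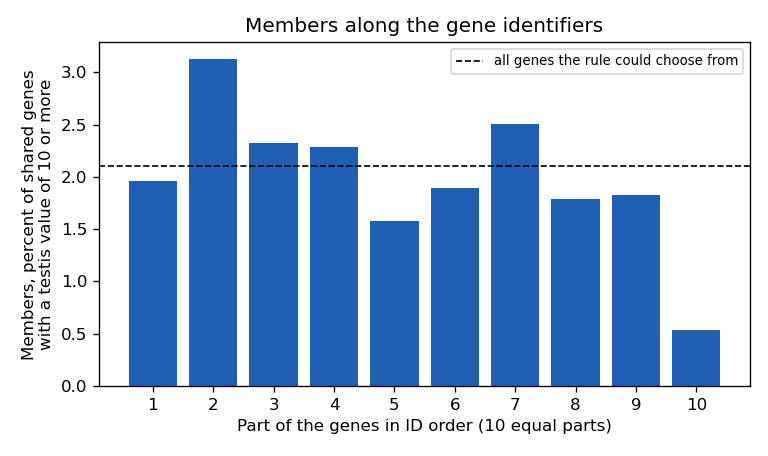
Genes of the list as a share of the shared genes with a testis value of at least 10, in each of 10 equal parts of all 26719 genes ordered by the number in the identifier. The bars lie between 0.538% (last part) and 3.13% (second part), and the dashed line marks 2.1%, the share over all genes considered.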

How the data were processed

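The authors aligned the RNA-seq reads to the sea bass genome (dicLab v1.0c) and its annotation with the GEMtools pipeline, quantified genes, excluded 1 muscle sample and normalized by TMM. They deposited 1 expression score per gene and tissue, named cpm, which was treated as having no fixed unit. How the fish were combined is not given in the sources used here. Of the authors' deposited table of their comparison, the column named baseMean was used. Its fold changes, test statistic and p-values were not used.

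Genes were ranked by log2(testis value / muscle value), without a pseudocount, among shared genes with a testis value of at least 10, and the first 200 were taken. The members and all summaries were chosen with earlier results of these data known. With identifiers unmatched to names, the genes printed were by rule those with the highest ratio and the highest testis value, and the others are given by place. Intervals of medians are from order statistics at 95%. The selection step was tested on simulated data, in which the planted genes had ratios far above the rest and all were recovered. The test does not bear on the close ratios at the end of the real list. Medians count as moved outside this interval, and counts and shares beyond 1.5 times.

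The alternatives were a minimum testis value of 5, 20 or none, a pseudocount of 1, a minimum muscle value of 0.5, tables scaled to the same sum and a list of 100 genes. Methylation libraries (RRBS, 6 in all) were not used here, since no gene positions on their build were at hand. The software was pandas 2.3.3, numpy 2.4.6, scipy 1.17.1 and matplotlib 3.10.9 under Python 3.11.15.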

Additional observations from a re-analysis of the deposited data

How the results depend on the processing

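No paired analysis was possible because the tables hold 1 value per gene and tissue and none per fish, and for the same reason no fish could be left out. Of 49 values under the alternatives, 38 stayed as they were within the limits given with the methods. Part of this count was fixed in advance, so it does not measure how stable the list is. The lowest testis value of the list was 26.4, so a minimum of 20 could only return the same list. With a minimum of 5 or none, only genes with a testis value under 10 could enter. Among all shared genes, 201 had a ratio as high as that of the last member, so at most 1 gene could change. The list kept 199 of its 200 genes with a minimum testis value of 5, with none or with both tables scaled to the same sum, where 1 gene with a testis value under 10 entered, all 200 with a minimum of 20, and 193 with a minimum muscle value of 0.5. With a pseudocount of 1 it kept 151 genes, which the limit for counts still takes as unchanged. The median values of the resulting list were then 134.6 in testis and 2.23 in muscle, its share of the summed testis values was 6.55%, 17 genes had a muscle value under 1 and 4 were next to another in identifier order. By construction, the list of 100 genes shared 100 with the full list. Its median testis value was 127, and 24 of its 100 genes had a muscle value under 1, against 47 of 200 in the full list, so this count differs by the length of the list. With both tables scaled to the same sum the median testis value was 122, a change of unit that is common to all testis values. The median log2 ratio of the neighbouring genes, for which the alternatives were chosen after the data were seen, was 3.31 with the scaled tables, where every ratio is shifted by 0.47, and 2.43 for the list of 100 genes. The missing spread between fish and the unknown number of reads behind low muscle values limit all ratios.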
